A study of Mus musculus with 30 samples.

Results

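The lysosome genes examined here are 37 mouse genes chosen by name for their place in the lysosome. No measured value entered the rule, although the list was drawn up with earlier results of these data known. They encode the enzymes, membrane proteins, pump subunits and regulator of the organelle in which cells break down what they take up. Each of the 37 had a row in the deposited count table of 56748 genes, and each was among the 17518 genes with enough counts to be tested. By role they comprise 10 proteases, 10 enzymes that cut sugar chains, 7 proteins of lipid breakdown and export, 5 membrane proteins, 2 proton pump proteins, the ion channel gene *Mcoln1*, progranulin (*Grn*) and the transcription factor *Tfeb*. The question put to them was whether the load of polymer given to the mice raised them with dose.

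Poly(A)-enriched RNA was sequenced from the quadriceps of 30 mice. Wild-type FVB/N mice (WT, n = 5) were untreated. All other mice carried the HSA-LR transgene (line HSA-LR20b, labelled DM1), in which the human skeletal actin promoter drives an expanded CTG repeat in skeletal muscle fibers. Mice labelled as receiving no treatment (NT, n = 8) served as the controls, and no mouse labelled as injected with vehicle was analysed here. The treated groups were 8 weeks old when injected into the tail vein and were killed 2 weeks after the final injection. Of them 10 received pacDNA-L9, an oligonucleotide against the repeat (L9) joined to a bottlebrush polymer of polyethylene glycol: 4 mice had a dose of 5.3 mg/kg, 3 mice had 21.2 mg/kg and another 3 mice had 42.4 mg/kg. The remaining treated mice had free L9 without polymer at 5.3 mg/kg (n = 3), the polymer alone at 40 nanomoles (Brush, n = 2), or the polymer with a scrambled oligonucleotide at 5.3 mg/kg (pacDNA-Scr, n = 2). Doses refer to the oligonucleotide. The 2 higher doses were given as repeated injections, so dose, polymer load and number of injections cannot be told apart. The labels give no strain for the 6 libraries of the second deposited set (free L9 C, library C of the middle dose of pacDNA-L9, libraries C and D of its lowest dose, and NT 7 and 8).

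A lysosome is an acidic compartment that receives material from endocytosis, phagocytosis and autophagy and digests it with hydrolases that work best at low pH. A proton pump, the V-ATPase, keeps it acidic, and glycoproteins such as LAMP1 and LAMP2 line its membrane. TFEB and its relatives TFE3 and MITF bind E-box letters in the promoters of many lysosome genes and can raise them together. Muscle fibers hold lysosomes, but cells specialized in uptake, above all macrophages, hold far more, and some lysosomal proteins, such as cathepsin S and CD68, belong mostly to such cells.

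Library totals ran from 13605309 to 26956558 counts. On the first principal component, which held 59.89% of the variance, the 6 libraries of the second set stood apart from the other 24, so the set was a term in the model. Free L9 C stood at 152.2 on it and the other 5 of that set at 191.0 to 195.3. Those 5 had no mitochondrial counts, while free L9 C had 11.97%. Whether 1 set term fits both kinds was not tested, which bears on the comparisons with free L9. Another 9 libraries, all of the first set, have column names made of a group and a running number with no mouse code, among them all 3 at 42.4 mg/kg and NT 6 as the only NT library. At an equal depth of 11977092 counts they showed 14438 to 18523 genes, against 18488 to 20222 in the other 15. Counts of sex-linked genes marked all 3 mice at 42.4 mg/kg and 4 of 8 NT mice as female. The 6 muscle fiber markers together held 52010 to 138900 CPM (counts scaled to a common library total after TMM normalization) in every library.

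Levels differed widely among the 37 genes in untreated muscle. Per kilobase of exon, the highest NT mean was that of *Psap*, which encodes the precursor of the saposins that help degrade sphingolipids, at 220.7 CPM per kb. The protease gene *Ctsd* followed at 108.5 CPM per kb and *Lamp1* at 86.06 CPM per kb. *Tfeb* itself stood at 19.78 CPM per kb. At the other end were *Atp6v0d2*, a variant subunit of the proton pump known from osteoclasts and macrophages, at 0.05455 CPM per kb and *Hpse*, which encodes the heparan sulfate cutting enzyme heparanase, at 0.1916 CPM per kb. In counts, the NT libraries held 1 to 7 reads of *Atp6v0d2* and 3 to 30 of *Hpse*, so the fold changes of these 2 genes rest on few reads.

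At 42.4 mg/kg, 8 of the 37 lysosome genes were higher than in NT and 0 were lower (edgeR quasi-likelihood test, adjusted p under 0.05). Of all genes tested, edgeR called 3.14% in either direction and 2.28% as higher. An unadjusted p under 0.05 belonged to 17 of the 37 and to 2295 of all 17518 genes tested. DESeq2 called 10 of the 37 higher, and its share of all genes is not given here. The 8 were the protease genes *Ctsb*, *Ctsk*, *Ctsl* and *Lgmn*, the lipase gene *Lipa*, the heparanase gene *Hpse*, *Grn* and the pump subunit gene *Atp6v0d2*. Fitted changes ran from 1.46-fold for *Ctsb* to 8.01-fold for *Atp6v0d2*. *Atp6v0d2* passed the filter on low counts through treated libraries, so its part in the counts of this paragraph supports nothing. The log2 fold change was above 0 for 33 of the 37 genes, or 89.2%, against 47.5% of all genes tested, and its median was 0.30 against −0.02. In 13 of the 37 every library at 42.4 mg/kg lay above every NT library in CPM, a pattern that 3.95% of all genes tested showed. *Ctsc* was the only one of the 37 in which all 3 libraries lay below every NT library. The share of all genes with that pattern is not given here, so nothing is read from this count. In bulk muscle, more cells of a type and more RNA per cell cannot be told apart.

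**Figure D1:**
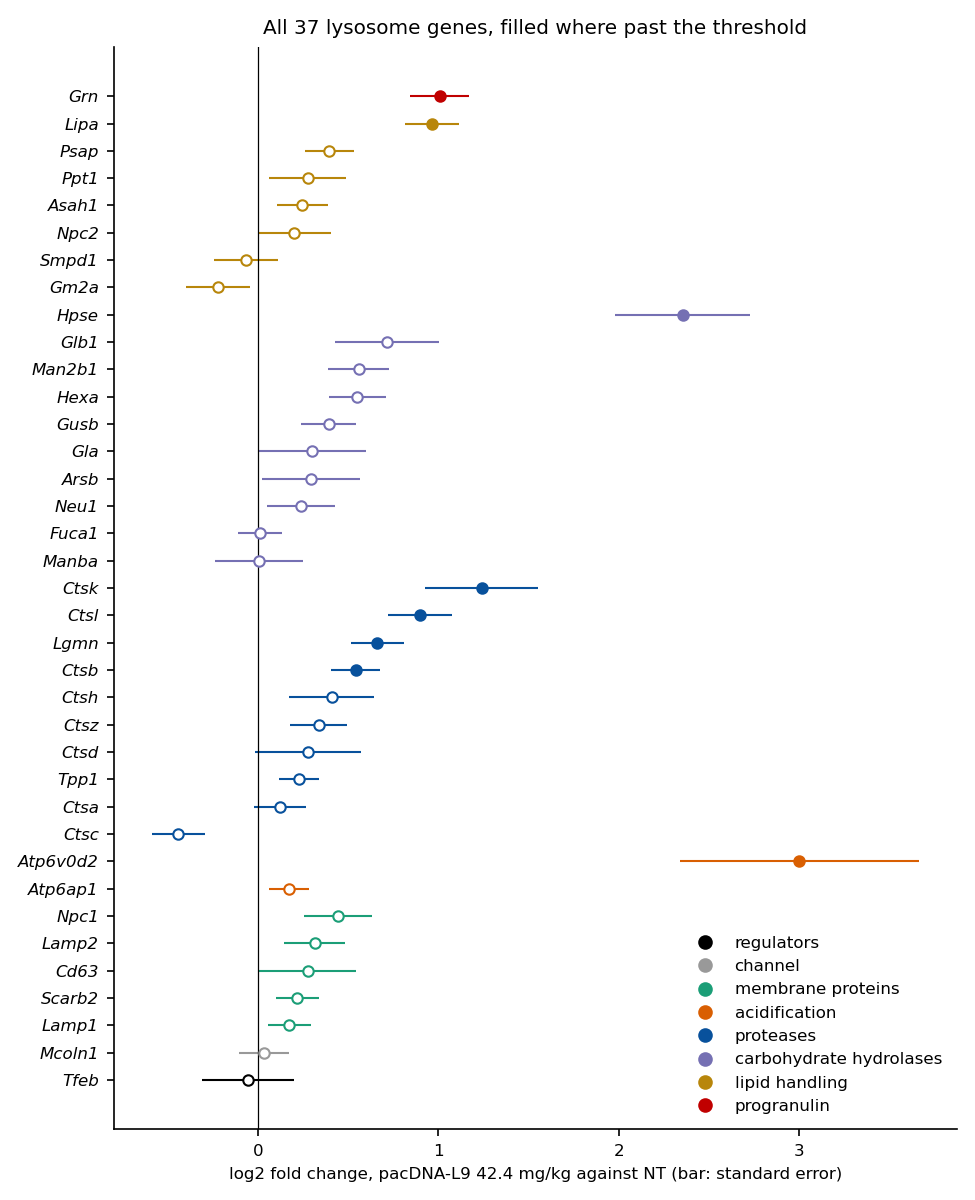
Log2 fold change of each of the 37 lysosome genes between pacDNA-L9 42.4 mg/kg (n = 3) and NT (n = 8), with the standard error as a bar, grouped and colored by role and filled where the edgeR adjusted p was under 0.05. The 8 filled points are all right of 0, *Atp6v0d2* at 3.00 and *Hpse* at 2.35 lie farthest out, and *Ctsc* at −0.44 lies farthest left.

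Among the proteases, *Ctsk* encodes cathepsin K, a collagen-degrading enzyme best known from osteoclasts. Its level was 5.94 CPM in the lowest NT library, 8.84 at the median and 11.6 in the highest. The libraries at 42.4 mg/kg held 30.7, 17.8 and 15.4 CPM. The groups did not overlap, but library A at 42.4 mg/kg stood well above B and C. The log2 fold change was 1.24 ± 0.31 (SE), with an edgeR padj of 0.022. Without library A it was 0.87 (padj = 0.259) and without library B 1.35 (padj = 0.0801).

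*Ctsl* encodes cathepsin L, a general endopeptidase of the lysosome. NT libraries ranged from 53.5 to 82.8 CPM with a median of 72.8, and the 3 libraries at 42.4 mg/kg held 112.7, 145.8 and 126.0 CPM. All 3 were above every NT library, and above every WT library too, of which the highest held 109.5 CPM. The log2 fold change against NT was 0.90 ± 0.18 (edgeR padj = 0.00293), and without library B 0.79 (padj = 0.078). Of the exon bases of *Ctsl*, 26.1% overlap a gene on the other strand and 5.92% a gene on its own strand, and the sources used here do not say whether strand was used in counting.

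*Ctsb* encodes cathepsin B, the most abundant of the called proteases per kilobase, and *Lgmn* encodes legumain, which cuts after asparagine and matures other cathepsins. *Ctsb* ran from 271.8 to 419.6 CPM in NT with a median of 337.4, against 538.7, 527.4 and 460.7 CPM at 42.4 mg/kg. *Lgmn* ran from 29.1 to 39.9 CPM in NT with a median of 32.2, against 59.0, 63.7 and 43.6 CPM. Neither gene overlapped between NT and 42.4 mg/kg, and WT reached 440.4 CPM of *Ctsb*. For *Lgmn*, library C at 42.4 mg/kg lay below WT 1 (45.04 CPM), free L9 A (49.45) and pacDNA-Scr B (47.66). It also lay below Brush A and B (44.88 and 48.36), pacDNA-L9 5.3 mg/kg A (48.74) and 21.2 mg/kg B (49.11). All other libraries outside 42.4 mg/kg held less *Lgmn* than library C. The changes were the smallest of the 8, with log2 fold changes of 0.54 ± 0.13 (edgeR padj = 0.0201) for *Ctsb* and 0.66 ± 0.15 (padj = 0.00817) for *Lgmn*. Each lost its call without library A (padj = 0.119 and 0.058) and without library B (padj = 0.187 and 0.177).

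*Lipa* encodes lysosomal acid lipase, which frees fatty acids and cholesterol from taken-up lipoproteins. Its level was 6.74 CPM in the lowest NT library, 7.73 at the median and 10.1 in the highest, and 15.5, 14.4 and 15.5 CPM at 42.4 mg/kg. The treated libraries lay close together and clear of NT, and WT libraries (8.64, 7.81, 8.88 and 7.40 CPM for WT 1 to 4 and 8.42 CPM for the unnumbered WT library) lay within the NT range. The log2 fold change was 0.96 ± 0.15 (edgeR padj = 0.000272). Progranulin, a secreted and lysosomal protein that helps hydrolases work and is abundant in macrophages and microglia, showed a change of like size. *Grn* ran from 19.2 to 39.3 CPM in NT with a median of 29.9, against 71.9, 68.3 and 58.2 CPM at 42.4 mg/kg, which is 1.01 ± 0.16 on the log2 scale (edgeR padj = 0.000388). Its exons overlap a gene on the other strand over 33.1% of their length.

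*Hpse* had the lowest NT levels of the 8 apart from *Atp6v0d2*, from 0.145 to 1.39 CPM with a median of 0.653. The libraries at 42.4 mg/kg held 3.52, 3.84 and 2.48 CPM. None overlapped NT or WT, whose highest library held 1.38 CPM. Its log2 fold change was 2.35 ± 0.37 (edgeR padj = 0.00029).

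*Atp6v0d2* changed most but rests on the fewest reads. It held 0.0464 to 0.297 CPM in NT with a median of 0.129, and 1.78, 1.06 and 0.891 CPM at 42.4 mg/kg. In WT, 2 of 5 libraries were at 0 counts, where 3 counts would have given 0.152 to 0.173 CPM. Its log2 fold change at 42.4 mg/kg was 3.00 ± 0.66 (edgeR padj = 0.00773), and without library A 2.64 (padj = 0.0576). Outside the groups given pacDNA-L9, free L9 B held 0.898 CPM and no other library more than 0.387 CPM. No NT or WT library reached the level of the lowest library at 42.4 mg/kg. The gene thus came through the filter on low counts by treated libraries, so its place among the 8 supports nothing. *Ctsk* and *Atp6v0d2* are known from osteoclasts, of which 4 markers, such as *Calcr* and *Oscar*, summed to 0.00 to 0.581 CPM at 42.4 mg/kg and 0.284 to 0.814 CPM in NT.

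**Figure D2:**
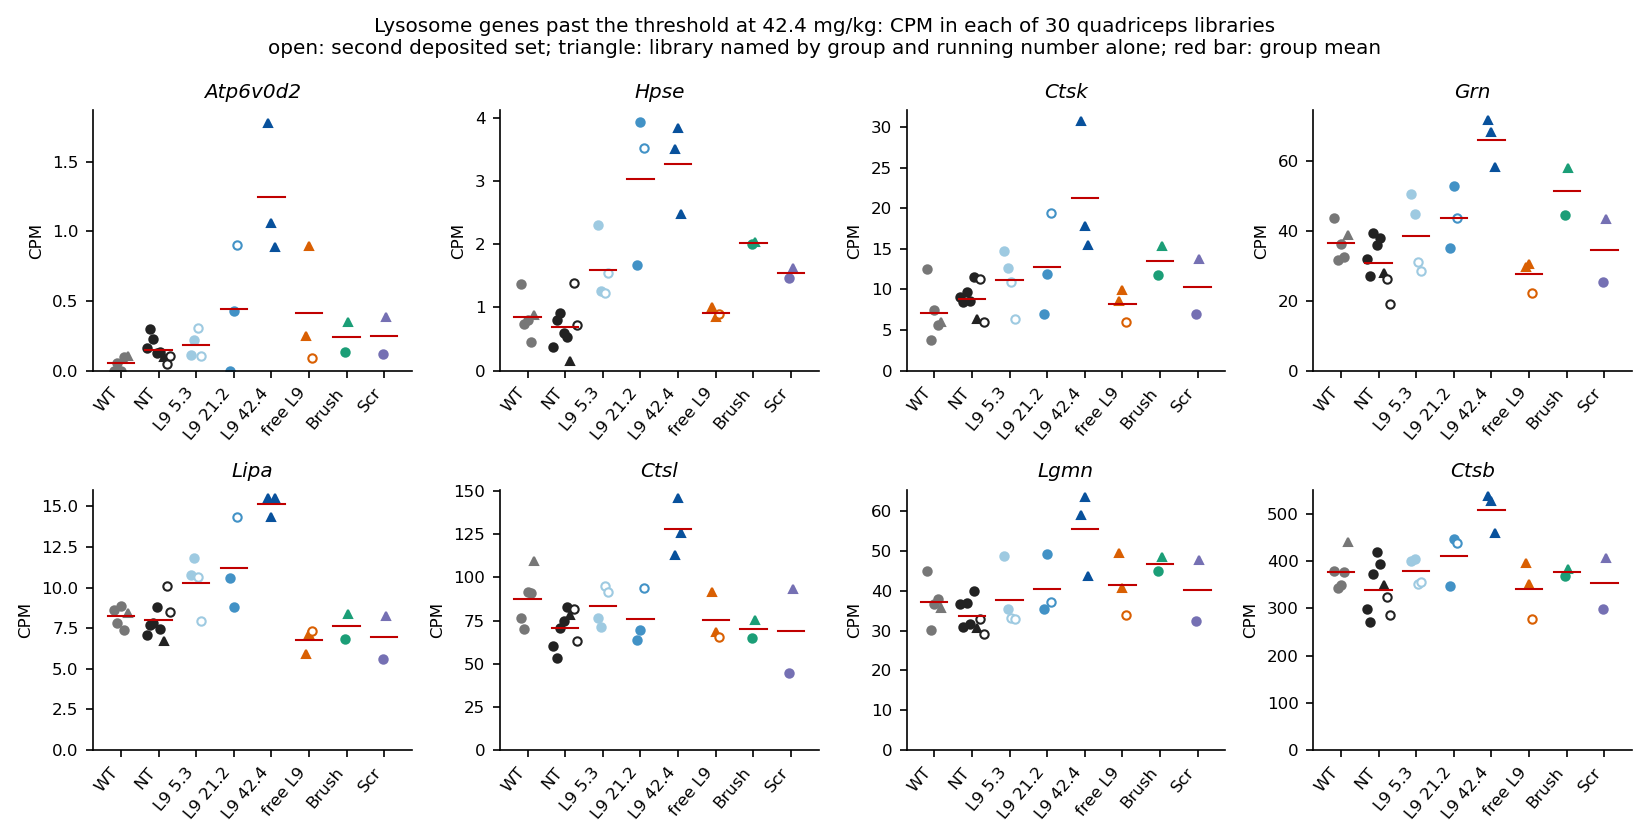
CPM after TMM normalization of the 8 lysosome genes called at 42.4 mg/kg, 1 panel a gene, in each of 30 libraries by group; open symbols mark the second deposited set, triangles the 9 libraries named by group and running number alone, and red bars group means. The 3 libraries at 42.4 mg/kg lie above all 8 NT libraries in each panel, and *Hpse* is also high at 21.2 mg/kg and with Brush.

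Beyond the 8, 29 of the 37 genes were not called at 42.4 mg/kg, with 9 of them at an unadjusted p under 0.05 and a median log2 fold change of 0.25. Of all 17518 genes tested, 2295 were at such a p, and the median over all was −0.02. Closest to the threshold were the sugar-cutting enzymes *Hexa*, a subunit of beta-hexosaminidase (log2 fold change 0.55 ± 0.16, edgeR padj = 0.0527), and *Man2b1*, the lysosomal alpha-mannosidase (0.56 ± 0.17, padj = 0.0745). Next in that class came *Glb1* at 0.71, *Gusb* at 0.39, *Gla* at 0.30, *Arsb* at 0.30 and *Neu1* at 0.24. *Fuca1* at 0.01 and *Manba* at 0.01 lay nearest to 0.

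Of the proteases that were not called, *Ctsh*, *Ctsz*, *Ctsd*, *Tpp1* and *Ctsa* had log2 fold changes of 0.41, 0.34, 0.28, 0.23 and 0.12. *Ctsc*, which activates the serine proteases of granulocytes and mast cells, had a log2 fold change of −0.44 ± 0.15 (edgeR padj = 0.114). Its libraries held 49.6, 45.3 and 47.9 CPM at 42.4 mg/kg, against a lowest NT library of 55.3 and a median of 65.0 CPM. In lipid handling, *Psap* stood at 0.40 (padj = 0.132), *Ppt1* at 0.27, *Asah1* at 0.25, *Npc2* at 0.20, *Smpd1* at −0.07 and *Gm2a* at −0.22.

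None of the 5 membrane proteins was called. Their log2 fold changes were 0.44 for the cholesterol exporter *Npc1*, 0.31 for *Lamp2*, 0.27 for the tetraspanin *Cd63*, 0.22 for *Scarb2*, which carries glucocerebrosidase to the lysosome, and 0.17 for *Lamp1*. The pump accessory gene *Atp6ap1* was at 0.17 and the calcium channel gene *Mcoln1* at 0.03. *Tfeb* held 148.7, 132.3 and 134.2 CPM at 42.4 mg/kg, inside the NT range of 97.1 to 176.6 CPM, with a log2 fold change of −0.06 ± 0.26 (edgeR padj = 0.99). Its relatives *Tfe3* (0.21 ± 0.20, padj = 0.766) and *Mitf* (0.31 ± 0.19, padj = 0.535) were not called either.

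The libraries behind these calls differ from most NT libraries in more than dose. In a model of the first set with a term for the 9 libraries named by group and number alone, 2 of the 37 genes stayed called at 42.4 mg/kg, *Hpse* at a log2 fold change of 2.82 (edgeR padj = 0.0162) and *Lipa* at 0.88 (padj = 0.0244). The other 6 kept their direction, at 0.82 for *Grn* (padj = 0.104), 0.49 for *Ctsl* (padj = 0.42), 0.63 for *Lgmn* (padj = 0.248), 0.36 for *Ctsb* (padj = 0.551), 1.21 for *Ctsk* (padj = 0.228) and 2.17 for *Atp6v0d2* (padj = 0.493). That model has 1 NT library of the same naming, NT 6, which held 0.145 CPM of *Hpse*, 6.74 of *Lipa*, 28.0 of *Grn* and 78.1 of *Ctsl*. As all 3 libraries at 42.4 mg/kg share this naming, dose and naming cannot be fully told apart for any of the 8 genes. For *Hpse* and *Lipa*, NT 6 was also the lowest of the NT libraries. With sex as a further term, 7 of the 8 stayed called, all but *Ctsk*.

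**Figure D3:**
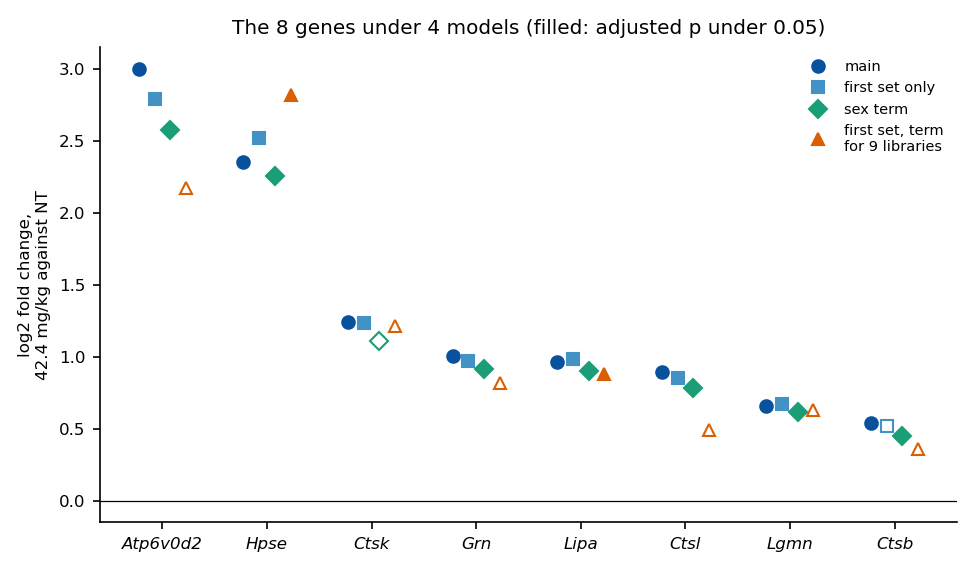
Log2 fold change between 42.4 mg/kg and NT of the 8 called lysosome genes under 4 models (all 30 libraries with the set term, the first set only, sex as a further term, and the first set with a term for the 9 libraries), filled where the edgeR adjusted p was under 0.05. All 32 points lie above 0, and with the term for the 9 libraries only *Hpse* and *Lipa* are filled.

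Macrophage markers moved with the same groups. Of 14 listed, 13 were tested and 8 were higher at 42.4 mg/kg, *Lyz2* being the most abundant of them, with a median log2 fold change of 1.32. Summed over the 14, their level was 98.4 to 158.8 CPM in NT, 166.1 to 222.9 CPM at 5.3 mg/kg, 177.8 to 331.1 CPM at 21.2 mg/kg and 299.0 to 518.4 CPM at 42.4 mg/kg. It was 222.0 and 249.0 CPM with Brush, 137.2 and 201.8 CPM with pacDNA-Scr, 86.5 to 125.3 CPM with free L9 and 73.4 to 132.4 CPM in WT. Every library given polymer with L9 was above every NT library, as both Brush libraries were, while free L9 overlapped NT. The defining marker *Lyz2*, which encodes lysozyme, held 179.3, 189.2 and 123.9 CPM at 42.4 mg/kg, against 19.8 to 45.1 CPM in NT. The 8 called lysosome genes summed to 722.8 to 842.2 CPM at 42.4 mg/kg and 400.6 to 579.9 CPM in NT. They were picked by this same comparison, so the gap between their sums supports nothing further. All 37 genes summed to 3633 to 4072 CPM at 42.4 mg/kg and 2711 to 3506 CPM in NT. In WT all 37 summed to 3203 to 3671 CPM, which overlapped 42.4 mg/kg. Of 5 genes of active phagocytes *Gpnmb* and *Trem2* were higher. Of 2 neutrophil markers tested *S100a8* was higher, while the log2 fold change of the other was not above 0. The 4 neutrophil markers listed summed to 0.23 to 2.89 CPM at 42.4 mg/kg, overlapping NT at 0 to 1.11 CPM. By edgeR none of the markers tested of fibroblasts, endothelium, fat, muscle fibers, satellite cells, Schwann cells, mast cells or osteoclasts was higher. The part of macrophages in the change of the lysosome genes was not tested.

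**Figure D4:**
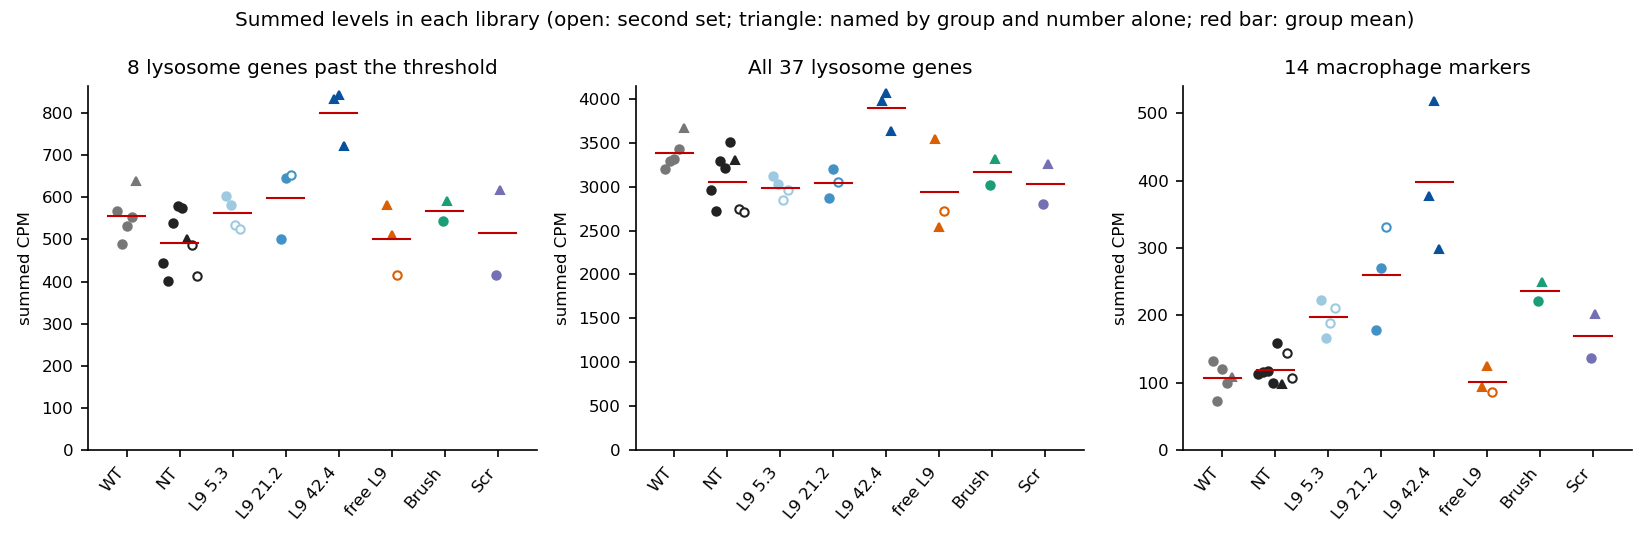
Summed CPM in each of 30 libraries of the 8 lysosome genes called at 42.4 mg/kg (left), all 37 lysosome genes (middle) and 14 macrophage markers (right), by group; open symbols mark the second set, triangles the 9 libraries named by group and number alone, and red bars group means. Macrophage markers are above all NT libraries at each dose of pacDNA-L9 and with Brush, whereas for the sum over all 37 genes the 42.4 mg/kg group is the only treated group with every library above NT. For that sum the 42.4 mg/kg group overlaps WT (3203 to 3671 CPM). The 8 genes were picked by their difference between 42.4 mg/kg and NT, so the left panel supports nothing further.

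Other genes of the lysosome, listed by function and not among the 37, gave 6 higher calls among 92 genes tested at 42.4 mg/kg (6.52%), where 2.28% of all genes were called higher. Of 28 further hydrolases 1 was higher, *Ctss*, which encodes cathepsin S of antigen-presenting cells, at a log2 fold change of 2.87 ± 0.31 (edgeR padj = 2e-06). Of 17 further membrane proteins and transporters tested, 3 were higher: the macrophage protein *Cd68* (2.07 ± 0.30), *Laptm5* of blood cells (1.89 ± 0.31) and the phagosomal metal transporter *Slc11a1* (1.21 ± 0.29). *Cd68* is also among the macrophage markers, and all 3 are genes of phagocytes and other white blood cells. Of 16 V-ATPase subunits 2 were higher, *Atp6ap2* at 0.72 ± 0.17 (edgeR padj = 0.0143) and *Atp6v1h* at 0.61 ± 0.15 (padj = 0.0195). Of 16 sorting genes and 15 genes of nutrient sensing tested, 0 were called by edgeR. In each list 2 were at an unadjusted p under 0.05, as were 2295 of all 17518 genes tested. The medians of these 5 lists lay between 0.10 and 0.15.

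Exact matches to CACGTG and TCACGTGA, letters that TFEB and its relatives bind, were looked up around the annotated canonical start of each gene. The window ran from 250 bases before to 50 after, in GRCm39. CACGTG, the E-box core, reads the same on both strands and stood in 6 of the 37 promoters (16.2%), those of *Mcoln1*, *Lamp1*, *Ctsb*, *Ctsd*, *Gla* and *Glb1*, and in 8.8% of the 17418 promoters of all tested genes that had such a start. The longer TCACGTGA, which contains CACGTG, stood in 3 (*Mcoln1*, *Ctsb* and *Gla*) and in 1.4% of all. Of the 8 genes called at 42.4 mg/kg 1 held either motif, *Ctsb*, and of the other 29 genes 5 held CACGTG. Below are the stretches from 100 bases before to 30 after the start of 3 genes with the letters and of *Hpse*, *Lipa* and *Grn*, the called genes with the lowest adjusted p, written 5′ to 3′ on the strand of the gene with the motif in capitals; a match is a description and not a shown binding site.
Ctsb (chr14:63359777-63359906, plus strand): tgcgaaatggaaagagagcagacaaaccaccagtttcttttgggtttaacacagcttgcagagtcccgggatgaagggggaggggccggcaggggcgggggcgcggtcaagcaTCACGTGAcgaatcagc
Gla (chrX:133501875-133502004, minus strand): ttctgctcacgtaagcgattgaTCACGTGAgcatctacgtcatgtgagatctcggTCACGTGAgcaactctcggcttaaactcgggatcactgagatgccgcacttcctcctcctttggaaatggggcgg
Lamp1 (chr8:13209021-13209150, plus strand): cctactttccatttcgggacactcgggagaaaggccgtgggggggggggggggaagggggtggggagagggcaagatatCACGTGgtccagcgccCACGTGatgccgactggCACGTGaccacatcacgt
Hpse (chr5:100867553-100867682, minus strand): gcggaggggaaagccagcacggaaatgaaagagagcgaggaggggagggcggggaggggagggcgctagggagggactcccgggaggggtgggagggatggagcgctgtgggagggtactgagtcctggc
Lipa (chr19:34504851-34504980, minus strand): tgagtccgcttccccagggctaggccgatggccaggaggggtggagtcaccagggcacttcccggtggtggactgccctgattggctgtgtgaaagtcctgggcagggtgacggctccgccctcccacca
Grn (chr11:102321041-102321170, plus strand): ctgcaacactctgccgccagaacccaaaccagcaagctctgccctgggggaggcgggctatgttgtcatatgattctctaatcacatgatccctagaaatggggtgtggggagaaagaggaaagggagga

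*Gla* carried TCACGTGA at 2 places and stood at 0.30 ± 0.30 (log2 fold change) at 42.4 mg/kg, *Lamp1* carried CACGTG at 4 places within its window, the last of which runs past the printed stretch, and was at 0.17 ± 0.12, and neither was called (edgeR padj = 0.778 and 0.601). *Hpse*, *Lipa* and *Grn*, with higher values in every treated library at that dose, held neither exact motif in theirs. Variants of these letters were not looked up, so the lack of a match does not show the lack of a binding site.

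Across doses, a straight line was fitted to log2 expression against mg/kg of pacDNA-L9, with NT at 0. Of the 37 genes 10 rose with dose (edgeR adjusted p under 0.05) and 0 fell, where 2.52% of all genes were called in either direction and 1.99% as rising. The 10 were the 8 called at 42.4 mg/kg together with *Hexa* and *Man2b1*. Slopes were 0.057 ± 0.010 log2 units per mg/kg for *Hpse* (edgeR padj = 0.00124), 0.023 ± 0.0039 for *Grn* (padj = 0.000741) and 0.021 ± 0.0034 for *Lipa* (padj = 0.000338). That of *Atp6v0d2* was 0.071 ± 0.014 (padj = 0.00363), but as this gene came through the filter by treated libraries, its slope and its place in the order of doses support nothing. For *Hexa* and *Man2b1* they were 0.012 ± 0.0034 (padj = 0.0472) and 0.014 ± 0.0039 (padj = 0.0453). Without the 3 libraries at 42.4 mg/kg, 0 of the 37 had a slope past the threshold, with *Hpse* nearest at an edgeR padj of 0.0574, while the fitted slopes were 0.098 for *Hpse*, 0.027 for *Grn* and 0.022 for *Lipa*. Leaving out library A or B at 42.4 mg/kg left 5 and 4 genes called. *Hexa* lost its call without any of 14 of the 18 libraries in turn and *Man2b1* without any of 12. With the term for the 9 libraries in the first set only *Hpse* stayed called.

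The order of the fitted group levels went from NT up through the 3 doses in turn in 13 of the 37 genes (*Cd63*, *Npc1*, *Atp6v0d2*, *Ctsb*, *Ctsk*, *Lgmn*, *Tpp1*, *Hexa*, *Man2b1*, *Hpse*, *Lipa*, *Asah1* and *Grn*), and in 5.23% of all genes tested. The reverse order occurred in 0 of the 37, and its share of all genes is not given here. From the lowest to the highest dose, the log2 fold changes against the same NT libraries were 1.17, 2.14 and 2.35 for *Hpse*, 0.43, 0.59 and 1.01 for *Grn*, and 0.33, 0.46 and 0.96 for *Lipa*. The median over the 37 genes was 0.10, 0.13 and 0.30, and the number above 0 was 26, 27 and 33.

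At 21.2 mg/kg 1 of the 37 genes was called, *Hpse*, where 12 of all genes tested, or 0.0685%, were called, all of them higher. *Hpse* held 1.67, 3.93 and 3.52 CPM in libraries A, B and C, each above the highest NT library of 1.39 CPM. The log2 fold change was 2.14 ± 0.36 (edgeR padj = 0.0081). The call was lost without library B or library C, and in the first set alone. Next by unadjusted p were *Grn* (0.59 ± 0.17), *Lipa* (0.46 ± 0.15) and *Man2b1* (0.50 ± 0.17), none of them called. *Lipa* held 10.6, 8.78 and 14.3 CPM, of which library B lay inside the NT range.

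At 5.3 mg/kg 0 of the 37 genes were called, as were 0.00% of all genes (edgeR, 277 genes at an unadjusted p under 0.05, 4 of the 37 among them; DESeq2 called 5 genes). The 3 lysosome genes with the lowest unadjusted p were *Hpse* (log2 fold change 1.17 ± 0.35), *Grn* (0.43 ± 0.15) and *Gusb* (0.34 ± 0.14). *Hpse* held 2.31, 1.27, 1.23 and 1.55 CPM in libraries A to D, which overlapped NT. Between 42.4 and 5.3 mg/kg, both injected, 0 of the 37 were called by edgeR, against 1.19% of all genes, while DESeq2 called *Lipa*. Of the 37, 10 were at an unadjusted p under 0.05, as were 1808 of all 17518 genes tested. At the lowest p were *Lipa* (0.63 ± 0.18, edgeR padj = 0.0931), *Ctsl* (0.70 ± 0.22, padj = 0.131) and *Atp6v0d2* (2.65 ± 0.86, padj = 0.163).

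The carrier controls bear on whether polymer without L9, at the loads given, goes with the same levels. With Brush, 0 of the 37 genes were called by edgeR, and 0.00% of all genes, with 329 genes at an unadjusted p under 0.05, 3 of the 37 among them (DESeq2 called 5 genes). Those 3 were *Hpse* at a log2 fold change of 1.66 ± 0.44 (padj = 0.911), *Grn* at 0.64 ± 0.19 and *Lgmn* at 0.41 ± 0.17 (padj = 1 for each). *Hpse* held 2.00 and 2.03 CPM, *Grn* 44.7 and 58.1 CPM and *Lgmn* 44.9 and 48.4 CPM, in each case above the highest NT library. These 3 genes were picked by their p in this same comparison, and the share of all genes with that order is not given here. Nothing is therefore read from the lack of overlap. *Lipa* held 6.86 and 8.37 CPM with Brush, within the NT range.

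With pacDNA-Scr, 0 of the 37 genes and 0.00% of all genes were called by edgeR (270 genes at an unadjusted p under 0.05, 1 of the 37 among them, and 0 genes by DESeq2). *Hpse* held 1.47 and 1.62 CPM, just above the highest NT library, with a log2 fold change of 1.27 ± 0.44 (padj = 1), and *Manba* (0.42 ± 0.28) and *Lgmn* (0.19 ± 0.17) followed by p. *Grn* held 25.4 and 43.5 CPM, on either side of most NT libraries. The labels give the Brush dose in nanomoles, and the study describes it as equimolar to the conjugate. The study lists Brush directly after pacDNA-Scr and free L9, both at the lowest dose. It does not name the dose of the conjugate that is meant for Brush. Like free L9, pacDNA-Scr was given at the lowest dose only. Neither control is stated to match the polymer load of the higher doses. Levels with polymer but without L9 at those loads therefore cannot be read from these groups. Differences between Brush, pacDNA-Scr and pacDNA-L9 were not tested.

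Free L9, the oligonucleotide without polymer, called 0 of the 37 genes by edgeR, where 0.942% of all genes were called. The lowest unadjusted p belonged to *Lgmn* (0.31 ± 0.15), *Ppt1* (0.44 ± 0.21) and *Atp6v0d2* (1.48 ± 0.73). Under 0.05 were 2 of the 37, and 2421 of all 17518 genes tested, while DESeq2 called 0 of the 37. *Hpse* held 1.01, 0.842 and 0.894 CPM and *Lipa* 5.94, 7.13 and 7.33 CPM, all at or below the highest NT library. Free L9 B, the library with the fewest genes at equal depth, held 55.6 CPM of *Ctsd* and 35.2 CPM of *Tfeb*, below every other library for both genes. At an equal dose of 5.3 mg/kg, pacDNA-L9 and free L9 differed in 0 of the 37 genes by edgeR (6 at an unadjusted p under 0.05; 0 by DESeq2) and in 0.719% of all genes, with *Lipa* (0.58 ± 0.18, padj = 0.142), *Grn* (0.55 ± 0.19, padj = 0.233) and *Man2b1* (0.55 ± 0.20, padj = 0.253) at the lowest p. How many of all genes had an unadjusted p under 0.05 there is not given here.

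**Figure D5:**
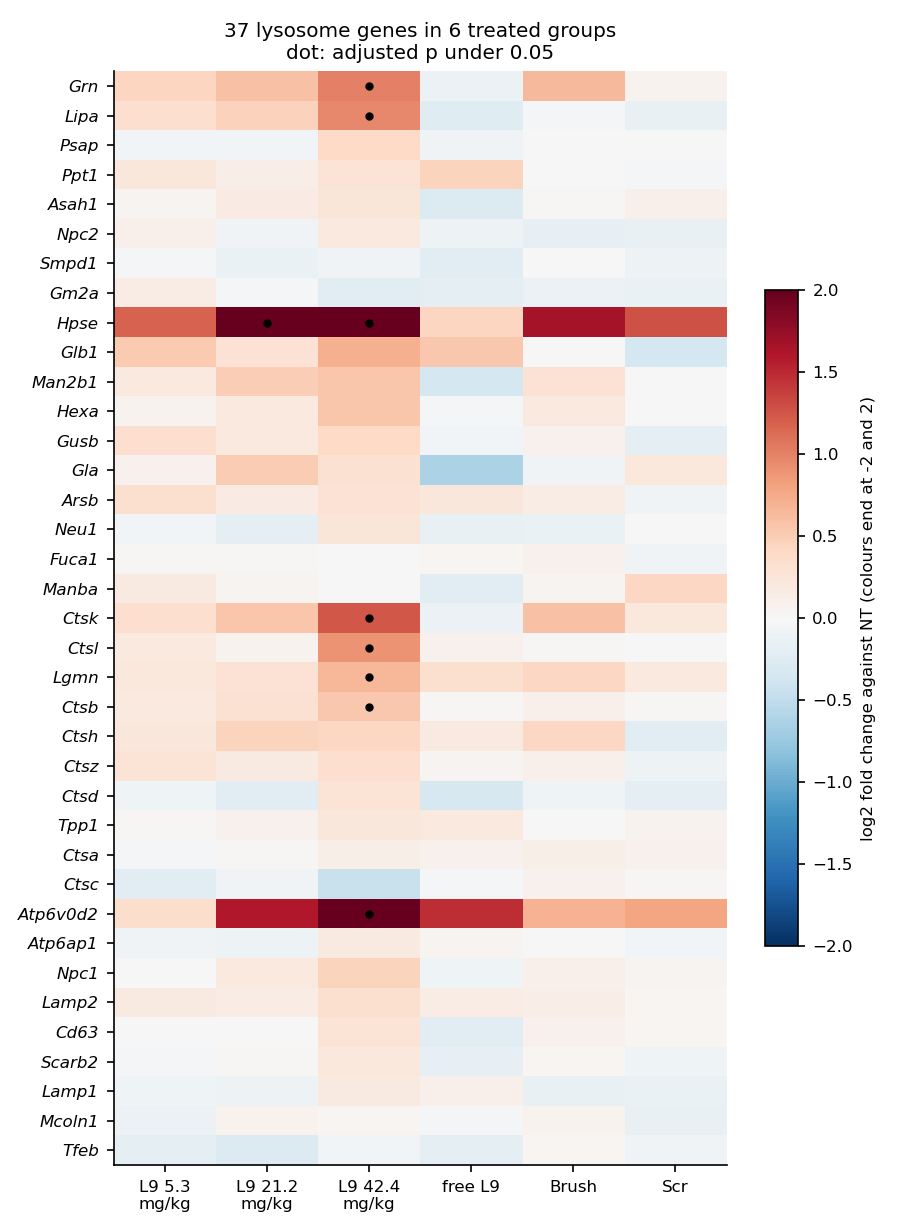
Log2 fold change against NT of each of the 37 lysosome genes (rows, by role) in the 6 treated groups (columns), on a color scale that ends at −2 and 2, with a dot where the edgeR adjusted p was under 0.05. *Hpse* is above 1 in every group given polymer, and dots appear at 42.4 mg/kg (8 genes) and at 21.2 mg/kg (*Hpse*) only.

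Without treatment, the repeat-expressing muscle differed from wild type in 2 of the 37 genes, a share close to the 5.31% of all genes that were called. *Ctsc* was higher in NT, with a log2 fold change of 0.51 ± 0.12 (edgeR padj = 0.0108). WT 1 to 4 held 37.3, 51.1, 49.9 and 43.2 CPM and the unnumbered WT library 44.9 CPM, below all NT libraries (55.3 to 85.6 CPM). The libraries at 42.4 mg/kg, at 45.3 to 49.6 CPM, lay within this WT range. *Tpp1*, which encodes the tripeptidyl peptidase lacking in a childhood form of neuronal ceroid lipofuscinosis, was lower in NT, with a log2 fold change of −0.38 ± 0.09 (edgeR padj = 0.0138). It held 59.4, 72.6, 66.8 and 66.5 CPM in WT 1 to 4 and 75.7 CPM in the unnumbered WT library, against 41.9 to 60.7 CPM in NT, where NT 6 alone overlapped WT. *Psap* (−0.37 ± 0.12, edgeR padj = 0.0618) and *Tfeb* (0.52 ± 0.22, padj = 0.214) were not called. *Tfeb* held 85.5 to 111.0 CPM in WT, 122.6 to 176.6 CPM in the 6 NT libraries of the first set and 97.1 and 105.3 CPM in NT 7 and 8, so that NT overlapped WT through the second set. It was called as higher with only the groups compared. The median of the 37 genes was −0.08, and 13 of them were above 0. Of the 8 genes called at 42.4 mg/kg, 0 were called between NT and WT by edgeR or DESeq2. Among the 8, 1 was at an unadjusted p under 0.05, as were 2894 of all 17518 genes tested.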

How the data were processed

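RNA from mouse quadriceps was sequenced as paired reads after poly(A) selection, and the authors deposited raw counts per gene, without normalization, in a single table of 56748 Ensembl genes. The submitters' processing notes name HISAT2 2.0.5 and DESeq2, with the genome build GRCm39. The counting options, strand and treatment of reads matching several places are not given in the sources used here, so members that overlap other genes are uncertain where stated. Gene names came from GENCODE vM39, matched for 56017 genes.

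Columns were tied to samples by their labels. The WT column with no matching number was used as an unnumbered replicate. The test was the robust quasi-likelihood F-test of edgeR 4.0.16 (R 4.3.3) after filterByExpr by group and TMM, in 1 model of 30 libraries with a coefficient for each group and a term for the deposited set, which left 17518 genes. P-values were adjusted by Benjamini-Hochberg over all of them, with a threshold of 0.05 (padj is this value). Standard errors (SE) were taken as the absolute log2 fold change over the root of the F statistic. CPM values are after TMM normalization and not corrected for set. Nothing in the labels says more about how mice were replicated than their numbers, so p-values measure the spread between these samples. Floors (3 counts) cover counting error only, whereas the standard errors, taken from the F statistic, also take in the spread between libraries. Libraries of a group differed by more than sampling noise (lowest chi-square per degree of freedom 16.19), so none was counted as a repeat. The scripts were tested on simulated data.

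The 37 genes were chosen by name, and no measured value was part of the rule, but they, the other lists and the tests were chosen with earlier results of these data known. Genes named are all called members, otherwise the 3 with the lowest unadjusted p, called genes of the other lists, and *Tfe3* and *Mitf*. Values of further genes (*Lyz2* and osteoclast markers) follow the marker lists. Alternatives were DESeq2's size factors, library size alone, no mitochondrial genes, other filters on low counts (none, or 10 counts in every library), no set term, the first set only, sex or the 9 libraries as a term, DESeq2 1.42.0, no robust estimation, only the groups compared, rank of dose, no 42.4 mg/kg libraries, a replicate block, and each library left out.

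Same-numbered samples of NT and WT correlated at 0.164, −0.0468, 0.113 and 0.192 in their deviations from the group means, so their numbers were not taken as pairs. For pacDNA-L9 5.3 mg/kg and free L9 the correlations were 0.53, 0.38 and 0.71, where C of each group is in the second set. Blocked and unblocked models there called 0 of the 37 genes alike.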

Additional observations from a re-analysis of the deposited data

Results flagged for a closer look

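In groups of 4 to 10 libraries, a library was looked at again where its gap to the nearest other was large against the range of its group (Dixon's criterion at the 95% level). Over 36 groups of the genes called in any comparison this picked 2 values, and chance picks about 1 in 20. *Lgmn* in pacDNA-L9 5.3 mg/kg A was at 48.74 CPM, where the next highest library of that group held 35.4 CPM. *Hexa* in WT 1 was at 31.11 CPM, below the other WT libraries, of which the lowest held 40.4 CPM.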

How the results depend on the processing

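No log2 fold change or slope of a called gene changed sign under any alternative run. Of 566 recomputed values for single genes, 98 fell short of the threshold. At 42.4 mg/kg the 8 calls became 6 with library size alone and 6 without a filter (*Ctsb* and *Ctsk* lost in each), 7 in the first set only (*Ctsb* lost), 7 with sex as a term (*Ctsk* lost), 2 in the first set with a term for the 9 libraries, and 4 to 9 when each library was left out, with 4 without library A and 4 without library B (*Hpse*, *Lipa* and *Grn* stayed in all). The 10 rising slopes became 6 with library size alone, 6 in the first set only, 1 with the term for the 9 libraries and 0 without the 42.4 mg/kg libraries, and 4 to 10 with each library left out. At 21.2 mg/kg the call of *Hpse* became 0 with 10 counts asked of every library (where it was not tested), in the first set with or without the further term, and with only the groups compared, and 0 to 1 with each library left out. Between 42.4 and 5.3 mg/kg, 1 gene was called by DESeq2 (*Lipa*) and 1 with only the groups compared (*Ctsl*). With free L9 against NT, 0 to 1 were called in each direction as libraries were left out (*Ppt1* higher without C, *Man2b1* lower without A), and 0 to 1 in pacDNA-L9 5.3 mg/kg against free L9 (*Man2b1* without free L9 A, *Lamp2* without B). For NT against WT, 2 genes were higher with only the groups compared (*Ctsc* and *Tfeb*). There 2 were lower with library size alone, 10 counts in every library, no set term, DESeq2 or only the groups compared, 0 without a filter, and 1 to 2 as libraries were left out (2 without NT 5). With a replicate block over numbers 1 to 4 of NT and WT, 0 were higher and 0 lower, *Ctsc* at 0.51 (padj = 0.0915) and *Tpp1* at −0.37 (padj = 0.111). In the same libraries without the block, added after seeing the data, 1 gene was higher (*Tfeb*) and 1 lower (*Psap*), while *Ctsc* was at padj = 0.0668 and *Tpp1* at padj = 0.056. In the other comparisons with a replicate block, 42.4 against 5.3 mg/kg and 5.3 mg/kg against free L9, 0 genes were called with or without it. Library size alone moved the median of all genes by −0.14 between 42.4 and 5.3 mg/kg and by 0.16 between 5.3 mg/kg and free L9. Depth limits *Hpse* and *Atp6v0d2* most.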
